A study of Homo sapiens with 414 samples.

Results

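Androgen response genes outside the kallikrein family were examined in single LNCaP cells, a human prostate carcinoma line that responds to androgen. The set was a list of 40 named genes, and all 40 were found among the 36135 genes of the count table. Knockdown cells had been transfected with an siRNA against SULT2B1, which encodes a sulfotransferase that acts on cholesterol. Control cells had received a non-targeting siRNA from another supplier, so target and supplier cannot be told apart. Harvest followed at 48 h, and a microfluidic Fluidigm C1 chip isolated the cells one by one, in 3 batches with both arms in each. The comparison used 192 knockdown cells (66, 65 and 61 in batches 1, 2 and 3) and 209 control cells (76, 66 and 67).

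The androgen receptor is a nuclear receptor that, once bound by testosterone or dihydrotestosterone, moves to chromatin and recruits coactivators to enhancers of its target genes. In prostate epithelium these targets include secreted proteases, transporters, chaperones of the receptor itself and enzymes of lipid, polyamine and sugar metabolism. TMPRSS2, FKBP5, SLC45A3 and NDRG1 are widely used as readouts of receptor activity, next to the kallikrein KLK3, which encodes prostate-specific antigen.

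The median cell had 1150826 reads in genes (range 169244 to 2353816). Adding up the cells of an arm within a batch gave 3 knockdown libraries of 71630108 to 84359044 reads and 3 control libraries of 73256509 to 79393642 reads. Levels below are CPM of these summed libraries, a gene's reads relative to the library size after TMM scaling. Nothing in the labels says whether a batch was its own culture; the p-values reflect batch-to-batch spread alone, and that spread may be technical. SULT2B1 stood at 0.162, 0.284 and 0 CPM in the knockdown libraries and at 2.07, 1.49 and 4.28 CPM in the control libraries. Every knockdown value lay below every control value, but the log2 fold change of -4.13 (SE 1.43) had an edgeR adjusted p of 0.268. The luminal markers KRT8, KRT18, EPCAM and CDH1 summed to 617 to 665 CPM in knockdown and 438 to 474 CPM in control. The basal markers KRT5, KRT14 and TP63 summed to at most 0.945 CPM in knockdown and 1.21 CPM in control. Neuroendocrine markers (4 genes) summed to 5.62 to 7.71 CPM in knockdown and 10.7 to 19.4 CPM in control, and those of mesenchymal cells (5 genes) and of blood and endothelium (4 genes) to at most 31.7 CPM in any library.

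As a set, these genes were more often lower than higher in knockdown cells, and a single member, MPHOSPH9, passed the threshold. Of the 40 members, all of which passed the filter on low counts, 27 had a log2 fold change below 0 and 13 above 0. Their median log2 fold change was -0.47, beside 0.01 over all 20326 genes tested. Within batches 1, 2 and 3 their median difference in log2(CPM + 1) was -0.61, -0.13 and -0.36, so it was small in batch 2. In all 3 batches 19 members were lower and 7 higher, beside 3702 and 3900 of the 20326 genes. At an edgeR adjusted p of 0.05, 1 member fell and 0 rose, while 0.777% of all genes tested were called in either direction and 0.384% were called lower. At an unadjusted p of 0.05, 13 members (32.5%) were lower and 1 was higher, against 7.08% and 6.40% of all genes tested. DESeq2 called 10 members lower and 0 higher, where 3.85% of all genes were called lower. With batch as a block no member passed (0.187% of all genes did), although 12 of the 13 lower members had an unadjusted p under 0.05 there as well. Every knockdown library lay below every control library for 11 members and above for 1, beside 10.1% and 10.5% of all genes. The members were listed with results of these cells already known, so these counts describe the set and are no independent evidence of its direction.

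Other gene groups also differed between these libraries. Genes of dividing cells (10 genes) summed to 1034, 518 and 788 CPM in knockdown and to 2036, 2494 and 1298 CPM in control, and 1 of them, RRM2, fell at an edgeR adjusted p of 0.05 (0.153 with the block). An unadjusted p under 0.05 was reached by 7 of these 10, and DESeq2 called 6 lower. Genes of the interferon response (11 genes) summed to 6330, 4815 and 6028 CPM in knockdown and to 63.1, 87.3 and 58.5 CPM in control, and 10 of the 11 rose (6 with the block). Cells with over 20% mitochondrial reads numbered 8 of 192 in knockdown and 35 of 209 in control. By batch they were 6, 0 and 2 in knockdown and 21, 8 and 6 in control. Most of those in control came from batch 1, and the other control batches were close to knockdown batch 1. Without all cells over 20% mitochondrial reads 2 members, MPHOSPH9 and HERC3, fell at an edgeR adjusted p of 0.05. In that fit 115 of 20110 genes were called lower, beside 78 of 20326 with all cells. The part of dividing cells and of the interferon response in the members' differences was not tested.

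**Figure D1:**
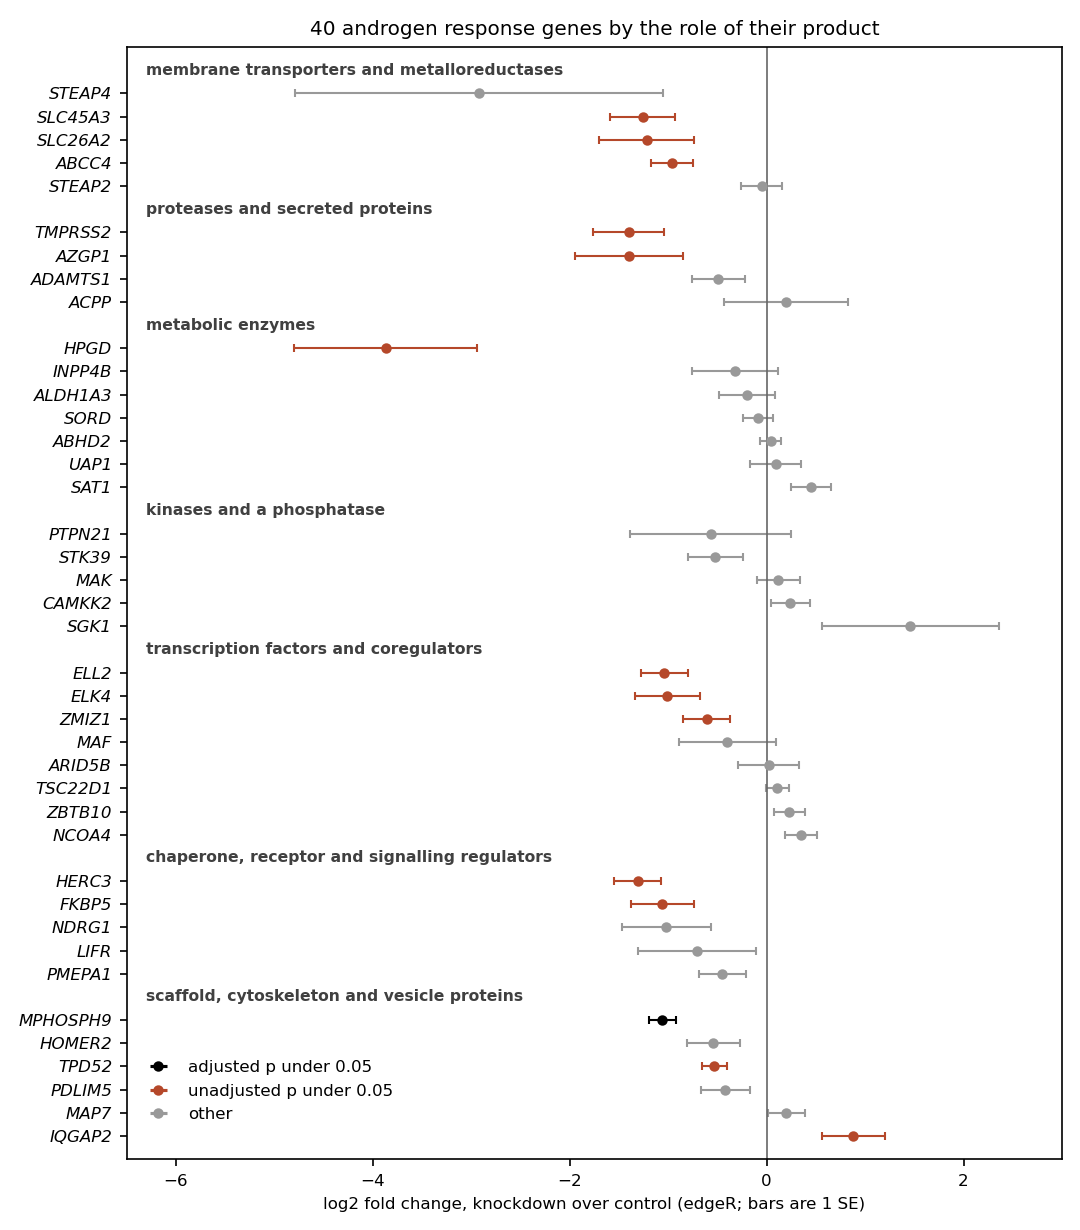
Each row is 1 of the 40 members, grouped by the role of its product, and the horizontal axis gives the edgeR log2 fold change of knockdown over control with 1 SE. All 5 transporters and metalloreductases and all 5 chaperone, receptor and signalling genes lie below 0, and MPHOSPH9 is the only member past an adjusted p of 0.05.

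The receptor binds palindromic DNA. Its consensus element is AGAACA, 3 unspecified bases, then TGTTCT, and many known elements of these genes lie in distant enhancers and not at the promoter. Windows were the 250 bases before a transcript start in RefSeq (GRCh38.p14), with 1 start taken per member. They were present for 32 of the 40 members, and TMPRSS2, ADAMTS1, SORD, ELL2, ZBTB10, ZMIZ1, NDRG1 and TPD52 had none. For some members, STEAP2, INPP4B, HERC3 and ABHD2 among them, that start lay far from the start of the annotated gene. The STEAP2 window began at 90211490 on chromosome 7, inside a gene that starts at 90167590. The HERC3 window began at 88523593 on chromosome 4, before a gene that starts at 88592423. Other starts of the members were not searched. Both strands were covered, since the element is its own reverse complement. An element with at most 2 mismatches in its 12 fixed letters was in 0 of the 32 windows and in 1.19% of 27305 promoter windows. Either side alone, AGAACA or TGTTCT, was in 1 window of the 32, that of STK39 (3.12%), and in 12.4% of all windows. The closest stretches, with 3 mismatches, were in FKBP5 and STK39. The KLK3 promoter holds a stretch with 2 mismatches whose first base lies 170 bases before the start, at position -170. The best stretches of the other kallikreins had 3 (KLK2), 5 (KLK15) and 6 (KLK4) mismatches, as many as those of members. For comparison with the element, capitals mark the letters that match its fixed letters in the KLK3 element, the closest stretch of STK39, the whole FKBP5 window with its closest stretch near the far end, and the whole SLC45A3 window, which is in lower case because its best stretch had 6 mismatches.
KLK3 (chr19:50854737-50854766, plus strand): gtaattgcAGAACAgcaaGTgCTagctctc
STK39 (chr2:168247686-168247715, minus strand): cgaggcggAGAACAgcgcGcgCTaggctct
FKBP5 (chr6:35728584-35728833, minus strand): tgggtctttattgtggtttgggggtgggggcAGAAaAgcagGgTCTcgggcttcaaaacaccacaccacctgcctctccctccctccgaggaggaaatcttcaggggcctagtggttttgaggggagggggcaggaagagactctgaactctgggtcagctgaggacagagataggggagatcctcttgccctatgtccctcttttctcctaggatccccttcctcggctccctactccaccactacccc
SLC45A3 (chr1:205680510-205680759, minus strand): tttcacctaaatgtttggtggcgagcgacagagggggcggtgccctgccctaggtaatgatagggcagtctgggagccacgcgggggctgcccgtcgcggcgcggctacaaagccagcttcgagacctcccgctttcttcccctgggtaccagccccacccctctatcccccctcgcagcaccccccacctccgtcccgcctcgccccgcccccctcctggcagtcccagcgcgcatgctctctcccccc
A window without the letters says nothing of binding elsewhere.

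MPHOSPH9 fell in knockdown cells. The gene (ENSG00000051825, chromosome 12, 123152320 to 123244014, minus strand, GENCODE 29 on GRCh38) encodes a phosphoprotein of the centriole that takes part in the control of cilium formation. It stood at 69.9, 60.6 and 73.3 CPM in knockdown and at 139.8, 157 and 127 CPM in control, so that the arms were far apart and the batches within each arm close together. The mean was 67.9 ± 6.58 CPM in knockdown and 141 ± 15.2 CPM in control (SD, n = 3). On the log2 scale this was -1.06 (SE 0.14), at an edgeR adjusted p of 0.0232. The adjusted p was 0.140 with batch as a block and between 0.0661 and 0.113 when any 1 of the 6 libraries was left out, so the call rests on all of them. The log2 fold change in those 6 fits was between -1.13 and -0.98. Reads from MTRFR, which overlaps the gene on the other strand, cannot be told apart from its own, because the strand setting of the counting is not given in the sources used here. In all, 22 of the 40 members overlap an annotated gene on the other strand, STEAP2 (STEAP2-AS1) and HERC3 (NAP1L5) among them, and 9 overlap one on the same strand.

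None of the 5 transporter and metalloreductase genes passed an edgeR adjusted p of 0.05, and 3 had an unadjusted p under 0.05. Those 3 were lower in knockdown cells in every batch, while the arms overlapped for both metalloreductase genes. ABCC4 (chromosome 13, 95019829 to 95301475, minus strand) exports cyclic nucleotides and prostaglandins. It had 114, 167 and 197 CPM in knockdown and 319, 265 and 347 CPM in control, with no overlap (log2 -0.96, SE 0.21, edgeR adjusted p 0.106). SLC45A3, known as prostein, is a prostate-enriched sugar transporter. Its levels were 3.52, 3.89 and 4.51 CPM in knockdown, each below the 10.5, 8.21 and 9.78 CPM of control (log2 -1.26, SE 0.33, edgeR adjusted p 0.148). SLC26A2 carries sulfate into cells, the substrate from which sulfotransferases draw their donor. It had 18.4, 6.56 and 5.99 CPM in knockdown and 27.8, 18.3 and 26.2 CPM in control, where knockdown batch 1 reached the lowest control value (log2 -1.22, SE 0.48, edgeR adjusted p 0.325). Without knockdown batch 1 the log2 fold change was -1.94.

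STEAP2 and STEAP4 reduce iron and copper at membranes. STEAP2 stood at 2563, 4061 and 3063 CPM in knockdown and at 2866, 2988 and 4173 CPM in control (log2 -0.05, SE 0.21, edgeR adjusted p 0.957). Its arms overlapped, and every cell of both arms held a read. STEAP4 was found in few cells: 1, 3 and 2 cells of the knockdown batches and 4, 0 and 3 cells of the control batches held any read. A count of 0 of 66 cells in control batch 2 allows a share of cells with a read of about 4.55% (3 cells of 66). The 95% Clopper-Pearson interval for that share reaches 5.44%. The log2 fold change of -2.92 had an SE of 1.87, and it was -0.88 with equal weight per cell and -1.73 without control batch 1.

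Of the 4 genes of proteases and secreted proteins, 0 passed an edgeR adjusted p of 0.05, and TMPRSS2 and AZGP1 had an unadjusted p under 0.05. TMPRSS2 (chromosome 21, 41464551 to 41531116, minus strand) encodes a transmembrane serine protease that primes viral glycoproteins and, in many prostate tumours, lends its androgen-driven promoter to ETS genes. It stood at 39.9, 69.1 and 86.3 CPM in knockdown and at 209, 104 and 202 CPM in control. The highest knockdown batch stayed below the lowest control batch, and the ratio varied from batch to batch. The log2 fold change was -1.40 (SE 0.36) with an edgeR adjusted p of 0.142, 0.254 with the block and 0.00135 by DESeq2. Within batches 1, 2 and 3 the difference in log2(CPM + 1) was -2.36, -0.58 and -1.22. AZGP1, the gene of the secreted zinc-alpha-2-glycoprotein, had 3.76, 11.3 and 3.64 CPM in knockdown and 13.1, 24.1 and 12.1 CPM in control (log2 -1.40, SE 0.55, edgeR adjusted p 0.326). Batch 2 was the highest of both arms, and without knockdown batch 2 the log2 fold change was -2.15.

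The other members of that group did not separate. ACPP, the gene of prostatic acid phosphatase, is listed under its current symbol ACP3 in the annotation. It had 44.2, 50.2 and 51.0 CPM in knockdown, inside the control range of 10.5 to 83.6 CPM. A single cell held 53.3% of its reads in knockdown batch 1 and 73.6% in control batch 3. ADAMTS1, a secreted metalloprotease that cleaves matrix proteoglycans, had 147, 167 and 106 CPM in knockdown and 236, 125 and 229 CPM in control (log2 -0.49, SE 0.27, edgeR adjusted p 0.517).

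Of the 7 metabolic enzymes, 0 passed an edgeR adjusted p of 0.05, and HPGD alone had an unadjusted p under 0.05. HPGD (chromosome 4, 174490177 to 174523154, minus strand) oxidises prostaglandins to inactive forms. It stood at 0.25, 1.40 and 2.24 CPM in knockdown and at 24.2, 27.6 and 5.31 CPM in control, with no overlap and a low value in control batch 3. The mean was 1.30 ± 1.00 CPM in knockdown and 19.0 ± 12.0 CPM in control (SD, n = 3; log2 -3.87, SE 0.93), with an edgeR adjusted p of 0.127 and a DESeq2 adjusted p of 2.81e-05. Giving cells equal weight made it -2.82 on the log2 scale, and it was -4.53 without knockdown batch 3. A single cell held 47.9% to 58.7% of the HPGD reads of each knockdown library, and 20% to 45.9% of those of each control library. SAT1, which acetylates polyamines, had 810.5, 1189 and 1325 CPM in knockdown and 715, 772 and 944 CPM in control (log2 0.45, SE 0.20, edgeR adjusted p 0.378). ABHD2, a lipid hydrolase, had 252 to 281 CPM in knockdown and 239 to 277 CPM in control. UAP1, which makes the sugar donor UDP-N-acetylglucosamine, had 195 to 273 CPM in knockdown and 151 to 312 CPM in control. For SORD, of the polyol pathway, ALDH1A3, which makes retinoic acid, and INPP4B, a phosphoinositide phosphatase, the log2 fold changes were -0.09 (SE 0.15), -0.20 (SE 0.28) and -0.32 (SE 0.44). SORD has a near-identical pseudogene copy, so its counts are less certain.

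Of the 5 kinase and phosphatase genes, 0 passed an edgeR p of 0.05, adjusted or unadjusted, and DESeq2 called 0. CAMKK2, a calcium-dependent kinase that activates AMPK and is a known androgen target in LNCaP, had 66.3, 59.4 and 52.2 CPM in knockdown and 51.3, 39.8 and 59.1 CPM in control (log2 0.24, SE 0.20, edgeR adjusted p 0.694). MAK, a kinase first described in male germ cells, had 19.8, 20 and 22.6 CPM in knockdown and 18.4, 17.3 and 21.8 CPM in control. STK39, a regulator of cation-chloride cotransporters, had 90.4, 50.1 and 45.7 CPM in knockdown and 103, 84.1 and 79.5 CPM in control (log2 -0.52, SE 0.28, edgeR adjusted p 0.496). SGK1, a kinase induced by steroid hormones, and PTPN21, a tyrosine phosphatase, stayed under 10 CPM in every library, with log2 fold changes of 1.46 (SE 0.90) and -0.57 (SE 0.82). Leaving out 1 library gave 0.90 to 2.75 for SGK1 and -1.16 to 0.14 for PTPN21.

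Of the 8 transcription factors and coregulators, 0 passed an edgeR adjusted p of 0.05 and 3 had an unadjusted p under 0.05. ELL2 and ELK4 were lower in every knockdown library than in any control library. ELL2, a subunit of the complex that releases paused RNA polymerase II, stood at 67.5, 75.9 and 43.1 CPM in knockdown and at 144, 138 and 103 CPM in control (log2 -1.04, SE 0.24, edgeR adjusted p 0.113). ELK4, an ETS factor, stood at 61.1, 72.1 and 135 CPM in knockdown and at 228, 140 and 173 CPM in control (log2 -1.01, SE 0.33, edgeR adjusted p 0.231). The difference shrank across batches, with knockdown batch 3 close to control batch 2. ELK4 lies 25888 bases from SLC45A3 on the same strand, and a transcript that reads through from SLC45A3 into ELK4 is known from prostate cells. Gene counts do not separate it from ELK4. ZMIZ1, a coactivator of the receptor, had 38.8, 45.7 and 54.2 CPM in knockdown and 80.7, 49.3 and 82.5 CPM in control (log2 -0.61, SE 0.24, edgeR adjusted p 0.334).

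The remaining 5 did not have an edgeR unadjusted p under 0.05. NCOA4, the receptor that delivers ferritin to lysosomes, was the only member with every knockdown library above every control library, at 259, 242 and 246 CPM in knockdown and 238, 191 and 157 CPM in control (log2 0.35, SE 0.16, edgeR adjusted p 0.413). It too has a near-identical copy in the genome. TSC22D1, a leucine zipper protein, had 315, 298 and 311 CPM in knockdown and 330, 254 and 275 CPM in control. ZBTB10, ARID5B and MAF had log2 fold changes of 0.23 (SE 0.16), 0.02 (SE 0.31) and -0.40 (SE 0.49).

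All 5 chaperone, receptor and signalling genes had log2 fold changes below 0, with a median of -1.02. Of these, 0 passed an edgeR adjusted p of 0.05, and HERC3 and FKBP5 had an unadjusted p under 0.05. HERC3 (chromosome 4, 88592423 to 88708542, plus strand), a ubiquitin ligase of the HECT class, stood at 56.2, 73.0 and 38.8 CPM in knockdown and at 122, 159 and 134 CPM in control, with a wide gap between the arms. Its log2 fold change of -1.31 (SE 0.24) had an edgeR adjusted p of 0.0714, of 0.0483 without the cells over 20% mitochondrial reads and of 0.118 with the block. FKBP5, a cochaperone of HSP90 in steroid receptor complexes, had 27.8, 37.2 and 35.3 CPM in knockdown and 90.8, 78.4 and 39.3 CPM in control. Control batch 3 lay just above the knockdown batches, and the within-batch difference in log2(CPM + 1) was -1.67, -1.06 and -0.15. Its log2 fold change was -1.06 (SE 0.32), with an edgeR adjusted p of 0.200. NDRG1, a stress and differentiation gene, had 6.54, 7.25 and 5.03 CPM in knockdown and 11, 6.69 and 20.4 CPM in control, and in batch 2 the knockdown value was the higher (log2 -1.02, SE 0.45, edgeR adjusted p 0.391). PMEPA1, a membrane protein that restrains TGF-beta signalling, and LIFR, the receptor of leukemia inhibitory factor, had log2 fold changes of -0.45 (SE 0.24) and -0.71 (SE 0.60), the last between -1.75 and -0.31 when 1 library was left out.

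Besides MPHOSPH9, 2 of the 6 scaffold, cytoskeleton and vesicle genes had an edgeR unadjusted p under 0.05, TPD52 and IQGAP2. TPD52, a protein of vesicle traffic, stood at 249, 205 and 245 CPM in knockdown and at 322, 314 and 373 CPM in control, with no overlap (log2 -0.53, SE 0.13, edgeR adjusted p 0.122). IQGAP2, a scaffold of small GTPases, stood at 41.6, 28.4 and 47.5 CPM in knockdown and at 30.3, 17.8 and 15.9 CPM in control. It was higher within each batch, although knockdown batch 2 lay below control batch 1 (log2 0.88, SE 0.32, edgeR adjusted p 0.297). HOMER2, PDLIM5 and MAP7 had log2 fold changes of -0.54, -0.42 and 0.20.

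**Figure D2:**
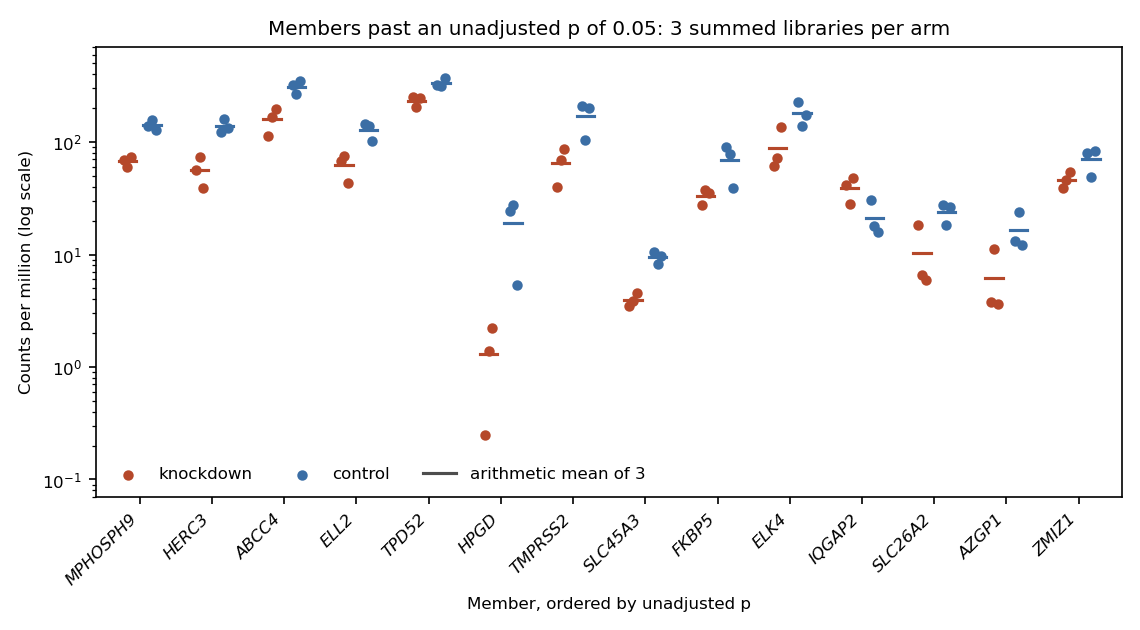
Points are CPM on a log axis in the 3 knockdown and the 3 control libraries for the 14 members past an unadjusted p of 0.05, ordered by that p, with a bar at each arm's mean. Of these 14, the arms do not overlap for 11 of the 13 that are lower in knockdown, and IQGAP2 is the single higher member. Choosing members by p in the same libraries favours such separation.

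The share of cells with a read and the level in such cells were described apart, although both depend on depth. A cell without a read may still hold the transcript. The share of cells with a read lay below every control batch in every knockdown batch for 7 members (ABCC4, SLC45A3, SLC26A2, AZGP1, HPGD, STK39 and ELK4) and above for 3 (SGK1, NCOA4 and TSC22D1). Among all genes tested, 5.85% were below and 15.3% above in this way, and 3 of 40 does not exceed that higher background. HPGD reads were in 3 of 66, 5 of 65 and 6 of 61 knockdown cells and in 24 of 76, 25 of 66 and 13 of 67 control cells. In knockdown batches 1, 2 and 3 this was 4.55%, 7.69% and 9.84% of cells, with 95% Clopper-Pearson intervals of 0.947 to 12.7, 2.54 to 17.0 and 3.70 to 20.2. In control it was 31.6% (21.4 to 43.3), 37.9% (26.2 to 50.7) and 19.4% (10.8 to 30.9). The mean share was 7.36% ± 2.66 in knockdown and 29.6% ± 9.39 in control (SD, n = 3; a two-sided exact permutation test gave p = 0.1, the smallest that 3 against 3 values allow). With each cell thinned to 100000 reads the means were 4.19% and 20.5%. AZGP1 reads were found in 18.8% ± 4.01 of knockdown cells and 36.6% ± 6.49 of control cells, and SLC26A2 reads in 26.5% ± 4.67 and 45.2% ± 5.64 (SD, n = 3; exact permutation p = 0.1 for each). Intervals cover counting error only, since amplified reads without molecular identifiers are not independent molecules.

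The level in cells with a read was taken next. The median CPM of such cells lay below every control batch in every knockdown batch for 9 members of the 36 with at least 5 such cells in each library, and above for 2. Among all genes with such a level, 8.36% were below and 9.11% above. HPGD, STEAP4, SGK1 and PTPN21 had too few cells with a read for a level. MPHOSPH9 had medians of 44.9, 43.3 and 25.9 CPM in knockdown cells with a read and 101, 114 and 102 CPM in control cells with a read, while its share of cells overlapped between the arms (74.7% ± 10.3 in knockdown and 86.0% ± 6.76 in control; SD, n = 3). With at least 5 reads required, its difference in level was -0.81 on the log2 scale, against -1.52 with any read. HERC3 had medians of 34.4, 32.7 and 25.8 CPM in knockdown and 80.4, 99.7 and 85.5 CPM in control, at overlapping shares. TMPRSS2 had medians of 27.2, 37.5 and 42.3 CPM in knockdown and 87.6, 67.7 and 144 CPM in control. Its share of cells was 66.7% in knockdown batch 1, and lay between 86.4% and 91.0% in the other 5 libraries. ABCC4, SLC45A3 and ELK4 were lower in both measures. With every cell thinned to 100000 reads, the mean share was 60.1% in knockdown and 77.8% in control for MPHOSPH9. For HERC3 they were 59.4% in knockdown and 74.3% in control, and for TMPRSS2 62.2% in knockdown and 79.4% in control. Shares after thinning were 13.1% in knockdown and 26.1% in control for AZGP1, and 18.6% in knockdown and 30% in control for SLC26A2. After thinning, share differences of MPHOSPH9, HERC3 and TMPRSS2 were thus no smaller than those of AZGP1 and SLC26A2. In cells with a read, ELL2, TPD52 and PMEPA1 were lower as well, and ACPP and TSC22D1 were higher. These 2 of 36 do not exceed the 9.11% of all genes. For ACPP the medians of knockdown batch 3 and control batch 3 were both 16.3 CPM after rounding.

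**Figure D3:**
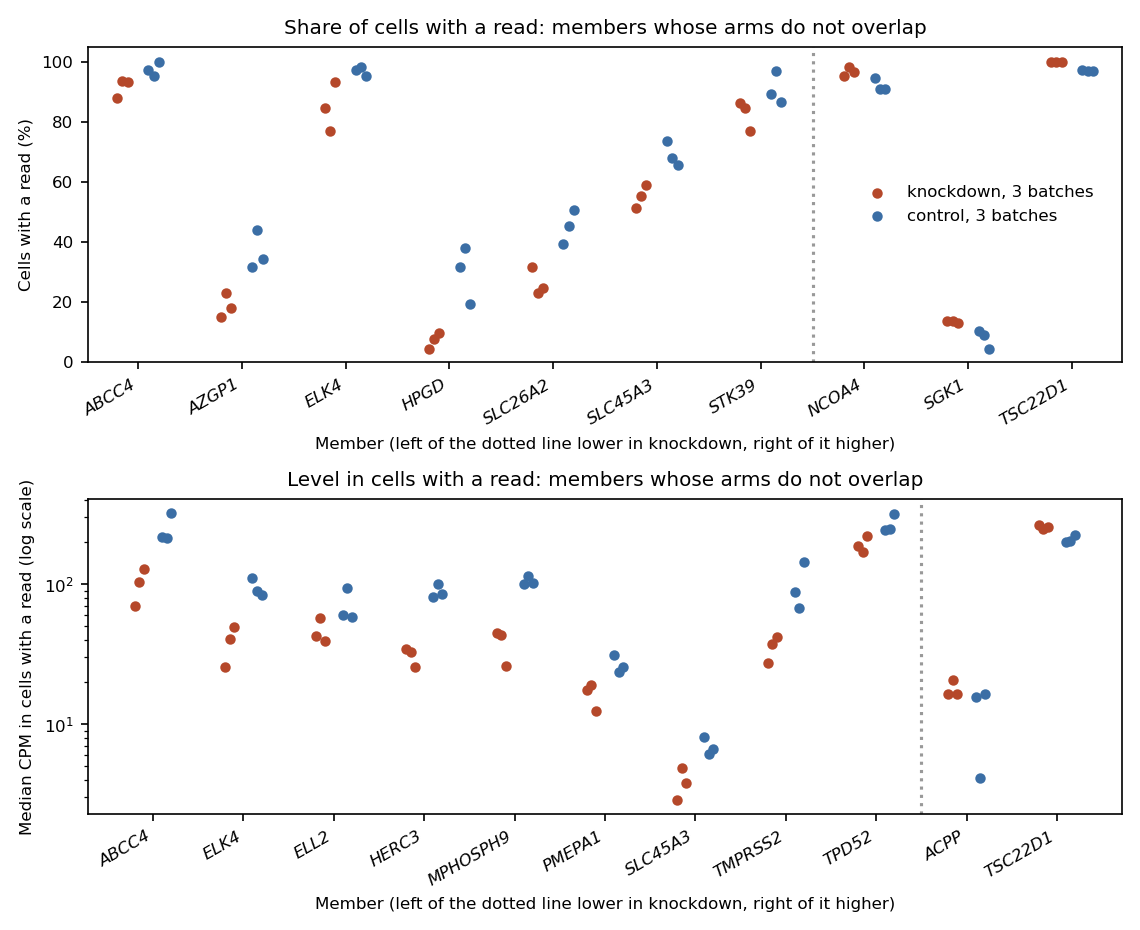
The upper panel plots the percentage of cells with a read and the lower panel the median CPM of cells with a read on a log axis, with 1 point per batch, for the members whose arms do not overlap. AZGP1 and SLC26A2 appear in the upper panel alone, MPHOSPH9, HERC3 and TMPRSS2 in the lower panel alone, and ABCC4, SLC45A3 and ELK4 on the lower side in both. HPGD could appear in the upper panel only, since 3 cells of knockdown batch 1 held a read and no level was taken for it.

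A cell held reads of 26, 28 and 28 members (medians of batches 1, 2 and 3) in knockdown and of 28, 30 and 29 members in control. The mean of log2(CPM + 1) over the members had medians of 3.77, 4.04 and 4.17 in knockdown batches and 4.22, 4.37 and 4.33 in control batches. Each knockdown median lay below each control median. The spread within a batch was wider than this gap, with quartiles of 3.35 and 4.30 in knockdown batch 1 and of 3.53 and 4.93 in control batch 1.

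Across cells, the members varied together only weakly. Spearman correlations of CPM were taken within each library for the 35 members with a read in at least 20% of the cells of every library, which form 595 pairs. The median over pairs was 0.080, 0.043 and 0.060 in knockdown batches and 0.167, 0.087 and 0.070 in control batches. Pairs of all 10396 genes detected as widely had medians of 0.081, 0.019 and 0.032 in knockdown and 0.139, 0.049 and 0.037 in control, so the members' pairs lay slightly above those of all genes in every library but knockdown batch 1. Cells of a library share its depth and the number of genes detected. Without the cells over 20% mitochondrial reads the median of control batch 1 was 0.096. Of the 595 pairs, 117 had a correlation above 0 in all 6 libraries and 0 below 0 in all 6. The same counts were not made for pairs of all genes. Since the medians of all genes were also above 0 in every library, these counts show nothing particular to the members.

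The pairs with the highest mean correlation centred on TMPRSS2. TMPRSS2 and SLC45A3 had correlations of 0.17, 0.32 and 0.37 in knockdown and 0.38, 0.26 and 0.41 in control. TMPRSS2 and PMEPA1 had 0.34, 0.12 and 0.31 in knockdown and 0.59, 0.36 and 0.18 in control. ABCC4 and TMPRSS2 had -0.04, 0.32 and 0.34 in knockdown and 0.41, 0.37 and 0.44 in control. These 3 pairs were the only ones of the 595 with a mean above 0.3, and such pairs were not counted among all genes. TMPRSS2 was also paired with UAP1 at 0.48, 0.34 and 0.26 in knockdown and -0.06, 0.05 and 0.09 in control, and with FKBP5 at 0.44, 0.44 and 0.15 in knockdown and 0.08, 0.07 and -0.05 in control. STEAP2 and TSC22D1 had the opposite pattern, at 0.14, 0.05 and 0.06 in knockdown and 0.46, 0.35 and 0.41 in control. These last 3 pairs were picked for their difference after the values were seen, and it was not tested.

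**Figure D4:**
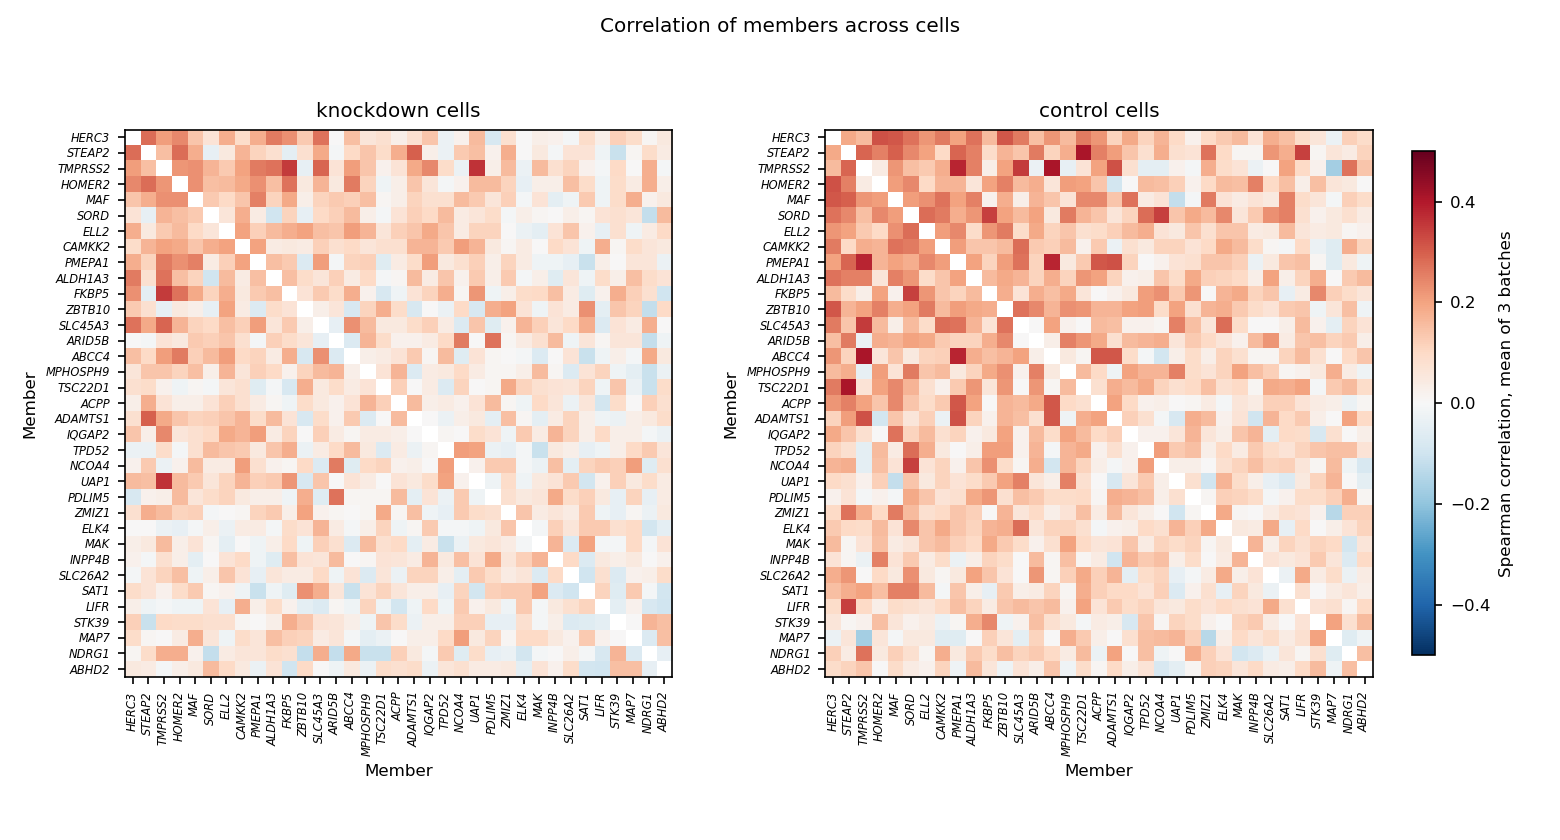
Each square is the Spearman correlation of a pair of the 35 widely detected members across cells, averaged over the 3 batches, in knockdown cells (left) and control cells (right), from blue (below 0) to red (above 0). TMPRSS2 with SLC45A3 and PMEPA1 is among the redder squares in both arms, and most other squares are pale.

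Across cells, the mean of the members was correlated with the mean of 4 kallikreins, at 0.18, 0.06 and 0.67 in knockdown and 0.53, 0.40 and 0.33 in control. The mean also followed the number of genes with a read, at 0.60, 0.36 and 0.30 in knockdown and 0.70, 0.59 and 0.45 in control. After ranks were adjusted for that number, the average correlation with the kallikreins over the 6 libraries was 0.35.

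In knockdown cells TMPRSS2 had a correlation near 0 with transcripts of dividing-cell genes, and in control cells TMPRSS2 was lower where these were higher. The correlation of TMPRSS2 with the mean of the 10 dividing-cell genes was 0.04, 0.03 and 0.06 in knockdown and -0.51, -0.39 and -0.41 in control. ABCC4 had 0.21, 0.11 and 0.29 in knockdown and -0.31, -0.24 and -0.15 in control. SLC45A3 (0.26, 0.04 and -0.11 in knockdown and -0.18, -0.28 and -0.31 in control) and PMEPA1 likewise had every knockdown value above every control value. Of the 35 members, 4 lay above in this way and 1 below, beside 2.90% and 8.28% of 10388 genes detected as widely. NCOA4 was the one member of the 35 to have every knockdown value below (-0.00, -0.14 and -0.13 in knockdown and 0.18, 0.19 and 0.23 in control). MPHOSPH9 had 0.18, 0.01 and -0.30 in knockdown and 0.59, 0.25 and 0.02 in control, where batches differed widely. TPD52, FKBP5, STK39 and ARID5B had values above 0 in all 6 libraries, with averages of 0.27, 0.24, 0.23 and 0.12. After ranks were adjusted for the number of genes with a read, these averages were 0.15, 0.12, 0.18 and -0.03. With the number of genes with a read, TMPRSS2 was correlated at 0.24, 0.24 and 0.14 in knockdown and -0.15, -0.04 and -0.16 in control, and the part of this in the pattern was not tested. The dividing-cell mean itself varied less among knockdown cells, with quartiles of 1.37 and 3.07, 1.43 and 2.75, and 1.49 and 3.18 in batches 1, 2 and 3, against 1.79 and 6.94, 3.48 and 7.53, and 1.60 and 5.65 in control. The difference between the arms' correlations was not tested.

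**Figure D5:**
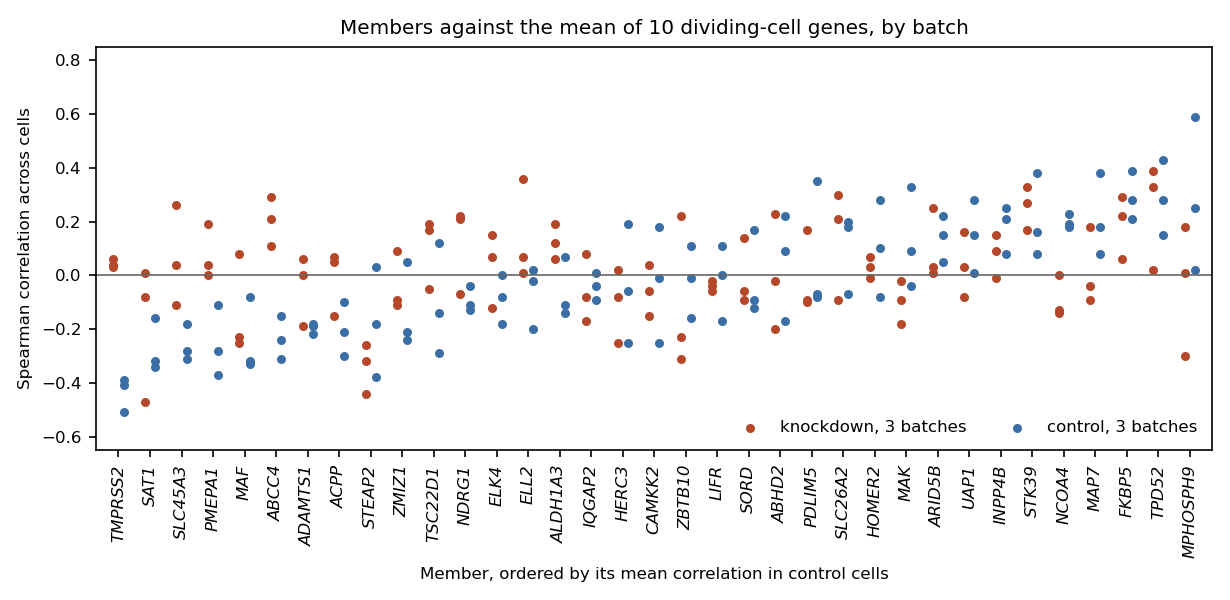
Points are Spearman correlations across the cells of a batch between each of the 35 members and the mean of 10 dividing-cell genes, 3 batches per arm, ordered by the mean in control. TMPRSS2, at the far left, lies between 0.03 and 0.06 in knockdown and between -0.51 and -0.39 in control.

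With the mean of the interferon genes, most members showed little relation in knockdown cells (median of the 35 members 0.03 in knockdown and 0.10 in control). ZBTB10, a zinc finger repressor, was the only member whose knockdown values all lay above its control values, at 0.36, 0.28 and 0.46 in knockdown and 0.10, 0.10 and 0.03 in control. CAMKK2, MAF, ARID5B and PMEPA1 had every knockdown value below every control value. Of 10393 genes detected as widely, 1.06% lay above and 19.5% below, so 4 of 35 below does not exceed the background. The interferon mean itself was low in control cells, with medians of 0.71, 0.80 and 0.79 in log2(CPM + 1). In knockdown cells the medians were 3.24, 2.99 and 2.87. Correlations in control cells thus rest on low levels, and the difference between the arms was not tested.

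Genes of the same pathway outside the 40 members behaved unevenly. Of 58 further androgen response genes, 1 fell and 0 rose at an edgeR adjusted p of 0.05, and their median log2 fold change was -0.05. The gene that fell was PLPP1, a lipid phosphate phosphatase, at 91.5, 88.2 and 82.5 CPM in knockdown and 294, 266 and 276 CPM in control (log2 -1.67, SE 0.11, edgeR adjusted p 0.00244, with the block 0.0267). Among the kallikreins, KLK2 and KLK3 fell (log2 -1.26 and -1.51, edgeR adjusted p 0.0446 and 0.0416, with the block 0.0703 and 0.154), and KLK4 and KLK15 did not pass. None of 10 coregulator and chaperone genes passed with edgeR, 2 having an unadjusted p under 0.05, and DESeq2 called 1. The 2 were NCOA2 (log2 0.46, SE 0.18) and HSP90AA1, the chaperone of the unbound receptor, at 3248, 3097 and 3076 CPM in knockdown and 2279, 2485 and 2041 CPM in control (log2 0.47, SE 0.09, edgeR adjusted p 0.0839). Of the 5 genes repressed by androgen that were tested, 0 passed by edgeR, at an unadjusted p under 0.05 or by DESeq2. Their median log2 fold change was 0.30, but its direction varied between batches. The median within-batch difference in log2(CPM + 1) was -0.27, 0.88 and -0.07 in batches 1, 2 and 3.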

How the data were processed

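Single LNCaP cells were profiled by RNA sequencing on a Fluidigm C1 chip. The authors deposited raw counts, whole read numbers for each gene in each cell, and the labels mention no molecular identifiers. GRCh38.p3 and the tools TopHat2 2.1.0, HTSeq 0.6.1, FastQC 0.11.3 and edgeR 3.2.2 are named in the submitters' processing notes, whereas neither annotation release nor strand setting is given in the sources used here. Capture sites without exactly 1 cell were excluded under the microscope, per the labels' protocols, and no doublet caller was run.

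The 401 cells whose label names a column and a single cell were used, of 414 samples; no 2 columns were identical. Not used were 4 labelled cells without a column, 6 libraries of several cells, 2 first runs, 1 repeat of unstated cells and 4 columns of values. Knockdown batch 1 includes 2 cells whose labels say that they were repeated in the sequencing of batch 2. Gene names came from the gene name table given, GENCODE 29 and, for ACPP, RefSeq synonyms.

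The replicate was the batch, not the cell: counts were added up per arm and batch (n = 3 each) and tested with edgeR 4.0.16 (quasi-likelihood, robust; limma 3.58.1, R 4.3.3), TMM, filterByExpr with a minimum count of 10 and Benjamini-Hochberg adjustment over 20326 genes; DESeq2 1.42.0 was an alternative, and the fit was tested on simulated data. The labels' word Batch pairs the libraries; deviations of same-numbered libraries correlated at 0.0551, -0.00369 and -0.0019. Per-cell work used Python 3.11.15, numpy 2.4.6, scipy 1.17.1 and pandas 2.3.3, with thinning to 100000 reads. Genes named with values in every library were those past an adjusted p of 0.05, or an unadjusted one with the same direction in 3 batches, the 8 members with the most CPM and 7 well-known targets; others were added after their values were seen. Members and lists were chosen with earlier results of these data known. Some genes of the pathway are not reported here.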

Additional observations from a re-analysis of the deposited data

How the results depend on the processing

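The count of all genes called was 158, and was 309 without the low-count filter, 1442 with DESeq2 and 38 with the replicate block. It was 242 with equal weight per cell, 198 without the cells over 20% mitochondrial reads, and 46 to 69 when 1 library was left out. The count of members called was 1, and was 4, 10 and 0 without the filter, with DESeq2 and with the replicate block, 2 without the cells over 20% mitochondrial reads, and 0 to 0 when 1 library was left out. Of the other pathway genes 3 were called, 13 with DESeq2, 1 with the replicate block and 1 to 1 when 1 library was left out. Members with a lower share of cells in every batch numbered 7, and 8 to 15 when a batch was left out. With only 2 batches the arms separate more easily, so that rise does not mean that more members were lower. The share of all genes was computed with all batches only (5.85%). The other alternatives tried moved these counts, the count of members with a lower level (23; 25 at 5 reads or more) and the mean of the 6 median pair correlations (0.084; 0.058 to 0.101) by less than 1.5 times or 1 SD. Single levels moved more: with at least 5 reads required, the log2 difference in level was -0.81 for MPHOSPH9 (-1.52 with any read), 0.78 for IQGAP2 (-0.22), -0.71 for INPP4B (-1.32) and -0.02 for LIFR (-0.73). Of 276 alternative values of 23 named members, 249 kept their direction and side of the threshold, 13 newly passed, 7 (all of MPHOSPH9) no longer passed and 7 changed sign. The sign changes were those of STEAP2 (0.05 with equal weight per cell, 0.09 without knockdown batch 1, 0.14 without control batch 3), ABHD2 (-0.01 without knockdown batch 1, -0.00330 without control batch 2) and UAP1 (-0.01 without knockdown batch 1, -0.13 without control batch 3), none at an edgeR adjusted p under 0.05; with 1 library left out their ranges were -0.25 to 0.14, -0.01 to 0.09 and -0.13 to 0.40. The causes were not tested. Members at low levels (STEAP4, SGK1, PTPN21, HPGD) are limited by few cells with a read.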

Other observations

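Reads of several low members sat in few cells. A single cell held 66.7% to 100% of the STEAP4 reads in each library that had any, and 25.0% to 84.1% of the SGK1 reads. MAF, a leucine zipper transcription factor, had a read in 33.4% ± 3.74 of knockdown cells and 29.3% ± 4.95 of control cells (SD, n = 3), and a single cell held 50.4% of its reads in knockdown batch 1. INPP4B reads were found in 61.5% of cells in knockdown batch 2, and in 25.8% to 39.5% of cells in the other 5 libraries.

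SLC45A3 and its neighbour ELK4 were both lower in knockdown and correlated across cells at 0.16, 0.27 and 0.08 in knockdown and 0.36, 0.06 and 0.42 in control. Of the 58 further androgen response genes, 8 had every knockdown library above every control library and 8 had every one below. Among all genes these were 10.5% and 10.1%, so the list lay near the background. Of those above, MYL12A, a myosin light chain, had 421, 352 and 412 CPM in knockdown and 261, 247 and 257 CPM in control. SRP19, of the signal recognition particle, had 300.2, 289 and 289 CPM in knockdown and 193, 206 and 176 CPM in control (edgeR adjusted p 0.0535 for each gene). ELOVL5, a fatty acid elongase, had 456, 367 and 429 CPM in knockdown and 931, 642 and 588 CPM in control (edgeR adjusted p 0.126).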
